A study of Mus musculus with 32 samples.

Results

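The genes described here encode the nuclear-encoded subunits of the mitochondrial respiratory chain and of the ATP synthase. They were chosen by probe name alone, as the probes whose symbols open with NDUFA, NDUFB, NDUFC, NDUFS, NDUFV, UQCR, COX4 to COX8 or ATP5, together with CYC1 and the SDH subunits, and without the NDUFAF assembly factors and ATP5S. By this rule 87 of 25697 probes, for 72 of 17877 genes, were members: 31 genes of complex I, 3 of complex II, 7 of complex III, 16 of complex IV and 15 of complex V. Of the 72 genes, 66 had a probe that was detected on at least 4 of 32 arrays and were tested (29, 3, 6, 14 and 14 genes of complexes I to V). The other 6 genes (Atp5k, Cox4i2, Cox8c, Ndufab1, Ndufs1 and Uqcrfs1) were detected on 0 arrays, so their probes gave a bound and no change. Of the 66 tested genes, 65 were detected on all 32 arrays, and Cox8b, a muscle isoform, on 25. No member probe stood for Sdha, and 0 probes stood for the genes that mitochondrial DNA encodes. By name Ndufa4 was counted in complex I, although it is now assigned to complex IV, and Cox7a2l, a factor of respiratory supercomplexes, was counted in complex IV.

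RNA came from right striatum and right cortex of male mice of the C57/Bl6 strain, 8-10 weeks old and labelled Gpx1-/-, that is, without the peroxide-reducing enzyme glutathione peroxidase 1. As in ischemic stroke, the middle cerebral artery was closed, here with a suture for 2 h, and the brains were removed 2, 8 or 24 h after it was drawn back, whereas sham mice had only the anaesthetic and a neck incision. Each of the 8 groups (2, 8 and 24 h of reperfusion and sham, in each region) had 4 Illumina MouseRef-8 V2 bead arrays, 32 in all. All groups carried the Gpx1-/- label and no wild-type array was analysed here, so the values describe this genotype only, and the growth protocol speaks of wild-type mice while titles, genotype field and treatment protocol speak of Gpx1-/-. Nothing in the labels says that the 4 samples of a group were separate animals, so p-values measure the spread between these samples, which may be technical.

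Signals are given as normalized log2 intensities, so a difference of 1 is a doubling, and levels of different probes were not compared. Between 10701 and 11935 of 25697 probes were detected per array. Cortex 24 h replicate 1 and cortex 8 h replicate 4 stood apart from their groups on the second principal component, and counts without them are given below. The Gpx1 probe was detected on all 32 arrays (8.78 to 10.45), and without a wild-type array or the probe's position it does not check the genotype. The label of the striatum was only partly borne out by markers. Pmch, a hypothalamic neuropeptide gene, read 11.49 to 12.42 on the 16 striatum arrays, against 4.63 to 6.03 on 15 cortex arrays and 9.71 on cortex 8 h replicate 2. Of 5 measured markers of striatal projection neurons, Drd1 and Ppp1r1b differed between sham striatum and sham cortex by 0.20 (adjusted p = 0.762) and 0.21 (adjusted p = 0.705). The summed linear signal of the 5 was 3964 to 5052 in sham striatum, against 3313 to 3806 in sham cortex. At each reperfusion time the sums of the regions overlapped. The libraries are called striatum and cortex after their labels.

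The respiratory chain passes electrons from NADH (complex I) and succinate (complex II) through complex III to oxygen at cytochrome c oxidase (complex IV), and the proton gradient that complexes I, III and IV build drives the ATP synthase (complex V). All complexes except II combine subunits encoded in the nucleus with subunits encoded in mitochondrial DNA. Neurons depend on this pathway for most of their ATP, and complex I is known as a source of reactive oxygen when oxygen returns after ischemia.

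The first question was how subunit transcripts differed from sham after each reperfusion time. Changes were small, and they went both ways among subunits of the same complex. Among changes that passed, the transcript of Cox6c, a small nuclear-encoded subunit of cytochrome c oxidase, fell furthest, by 0.79 on the log2 scale (1.73-fold) in striatum at 8 h. Ndufv1, the flavoprotein of complex I that takes electrons from NADH, rose furthest, by 0.44 (1.36-fold) in cortex at 24 h. By the 1 probe used per gene, the largest change of 64 of the 66 genes was under 0.5, and that of all 66 was under 1. Of all 9475 genes, 567 (5.98%) changed by 1 or more in at least 1 comparison. Other probes of Atp5l and Ndufc1 reached -0.71 and -0.58 in cortex at 24 h.

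In the striatum, 3 subunits passed the test (limma, adjusted p under 0.05) at 2 h, 1 higher and 2 lower, which is 4.55% of the 66, against 6.3% of all genes tested (3.49% higher and 2.81% lower). At 8 h, 3 were higher and 10 lower (19.7%, against 25.2% of all genes, 12.4% higher and 12.8% lower). At 24 h 2 were higher and 9 lower (16.7%, against 30.9%, 14.7% higher and 16.2% lower). In the cortex, 1 was higher and 4 were lower at 2 h (7.58%, against 4.65% of all genes, 2.21% higher and 2.45% lower). At 8 h 2 were higher and 2 lower (6.06%, against 20.2%, 9.58% higher and 10.6% lower), and at 24 h 6 were higher and 7 lower (19.7%, against 33.3%, 15.7% higher and 17.6% lower). The subunits' share was thus below that of all genes in 5 of the 6 comparisons, as the bars of shares that passed show. This order did not hold under every processing. Scaled to the 75th percentile, the subunits' share was again below that of all genes, in every comparison with sham. Without background correction it was below in all but cortex at 2 h (7.58%, against 5.12%). On the ratios that the authors deposited, the share was above that of all genes in 5 of the 6, at 16.7, 40.9 and 57.6% in striatum at 2, 8 and 24 h, against 12.9, 35.0 and 44.6%, and at 43.9 and 28.8% in cortex at 2 and 8 h, against 17.8 and 24.9%. In cortex at 24 h it was 25.8%, against 33.0%. Of the 66 genes, 24 passed in at least 1 of the 6 comparisons (36.4%, against 55.4% of all genes): 12 of complex I, 0 of complex II, 1 of complex III, 4 of complex IV and 7 of complex V. Higher in at least 1 comparison were 7, lower 17, and 0 genes passed in both directions. The counts at 2 h rested on single arrays: the lower count in striatum was 0 without sham replicate 1, 2 or 3 or 2 h replicate 1, and that in cortex was 0 without sham replicate 1 or 2 h replicate 2 or 3. With array weights 18 were lower in striatum at 2 h, and of all genes 2478 passed in either direction, against 597 without weights. With the slide as a replicate block, 6 were lower in striatum at 2 h and 4 in cortex at 8 h. Of all genes 777 and 2138 passed there, against 597 and 1917 without the block. Without striatum 8 h replicate 4 the lower count at 8 h was 4, and without sham striatum replicate 2 it was 6. Without striatum 24 h replicate 2 the lower count at 24 h was 4, and without sham striatum replicate 3 it was 5. In cortex at 24 h the counts went down to 3 higher and 4 lower when single arrays were left out. Without the 2 arrays that stood apart, 1 subunit was lower in cortex at 8 h and 4 at 24 h. The 3 comparisons of a region share their sham arrays and are not independent.

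**Figure D1:**
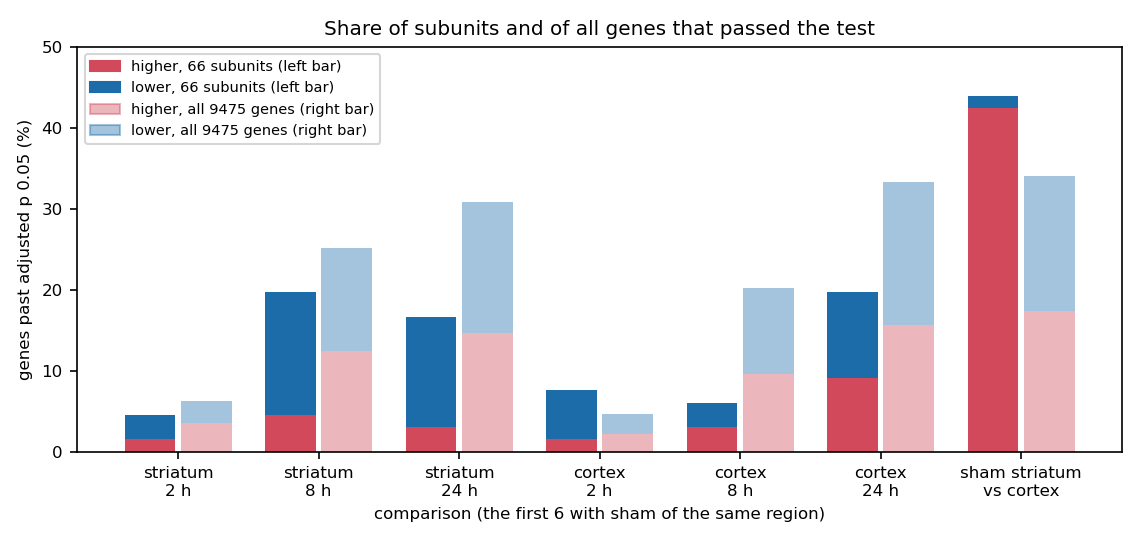
Share (%) of the 66 subunits (left bar, full colour) and of all 9475 genes (right bar, pale colour) that were higher (red) or lower (blue) at adjusted p under 0.05, for the 3 reperfusion times of striatum and of cortex against sham and for sham striatum against sham cortex. At 24 h the subunits reached 16.7% in striatum and 19.7% in cortex, against 30.9% and 33.3% of all genes; in sham striatum 28 subunits were higher than in sham cortex. Scaled to the 75th percentile the subunits' share was below that of all genes in every comparison with sham. On the authors' processed ratios it was above in 5 of the 6, and 1 of the calls was higher, in cortex at 24 h.

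The median log2 change of the 66 subunits was -0.11, -0.09 and -0.07 in striatum at 2, 8 and 24 h, and -0.06, -0.05 and 0.02 in cortex, beside medians of all genes between -0.03 and 0.00. Lower than in sham were 53, 46 and 47 of the 66 in striatum at 2, 8 and 24 h, and 46, 41 and 31 in cortex. Their median absolute change was 0.09 to 0.13, against 0.15 to 0.23 over all genes. The split between higher and lower differed between processings. Scaled to the 75th percentile, the subunits' medians were -0.11, -0.07 and -0.09 in striatum. In cortex they were -0.09, -0.08 and -0.02. There 1, 4 and 2 subunits passed as higher and 2, 8 and 7 as lower in striatum. In cortex 0, 0 and 1 passed as higher and 3, 3 and 9 as lower. On the authors' own processed ratios, 0, 0 and 0 subunits were higher and 11, 27 and 38 lower in striatum at 2, 8 and 24 h, and 0, 0 and 1 higher and 29, 19 and 16 lower in cortex. Of all genes 10.6, 28.8 and 36.6% were lower there in striatum, and 16.6, 20.2 and 24.5% in cortex. On that scale the median of all genes lay at -0.09, -0.13 and -0.18 in striatum and at -0.13, -0.09 and -0.09 in cortex, and the subunits' median lay a further -0.14 to -0.05 below it.

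**Figure D2:**
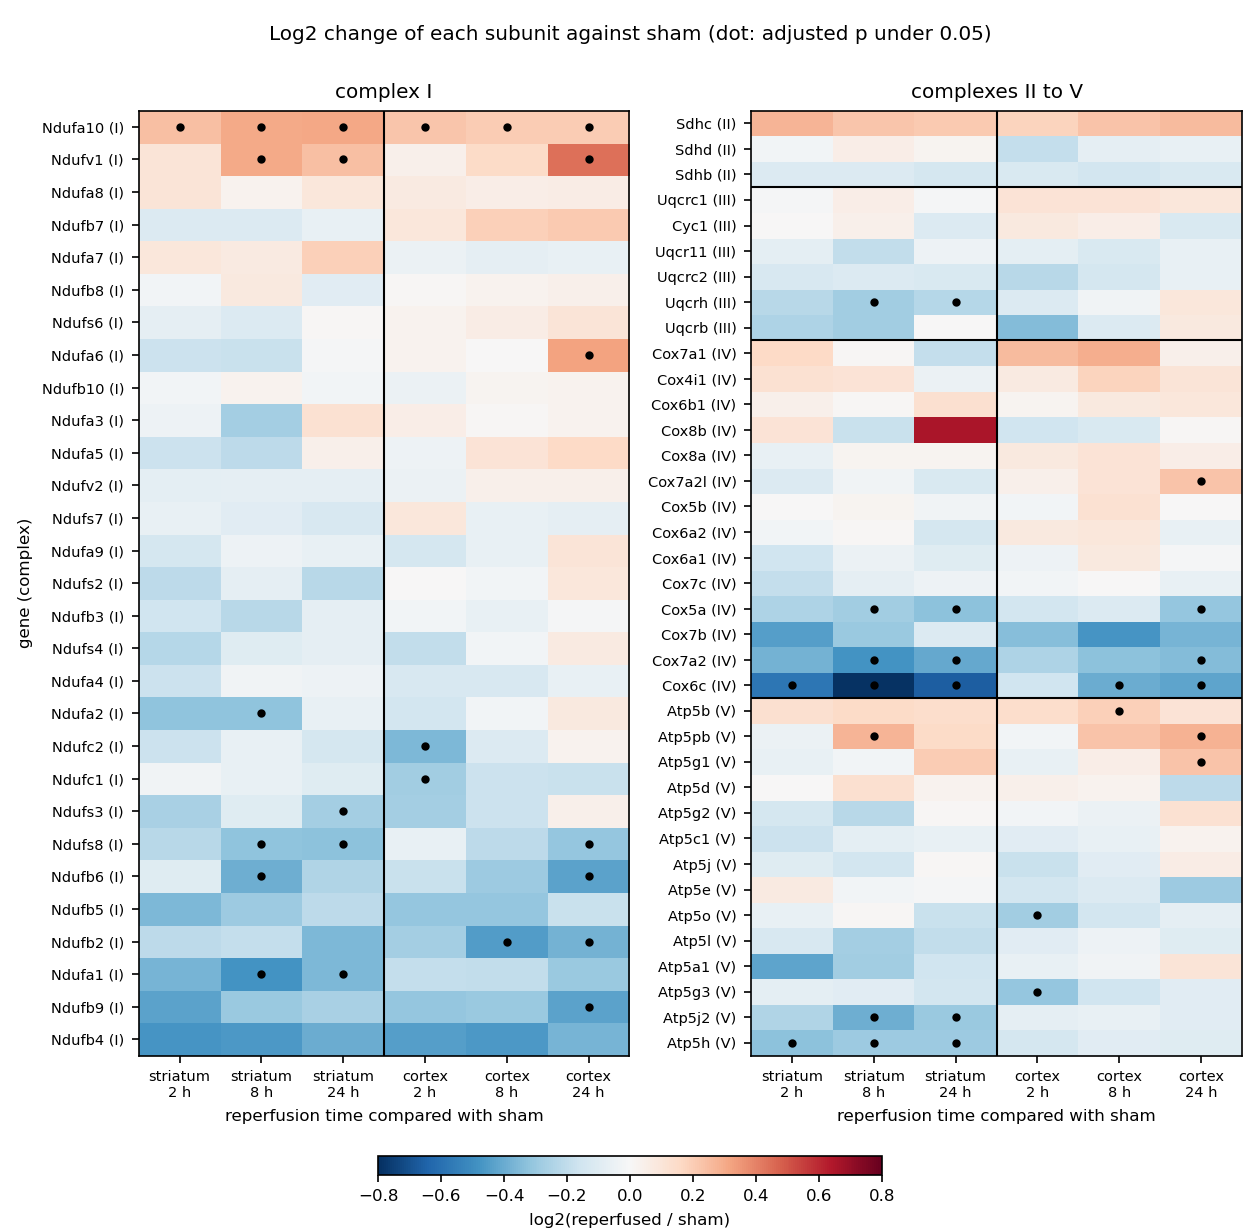
Log2 change of each of the 66 tested subunits (rows) against sham at 2, 8 and 24 h in striatum and in cortex (columns), complex I on the left and complexes II to V on the right; red is higher and blue lower than in sham, and a dot marks an adjusted p under 0.05. Cox6c (down to -0.79) has the darkest blue called cell and Ndufv1 (up to 0.44) the darkest red one. The row of Ndufa10 is dotted in all 6 columns, though not on the authors' ratios.

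Markers of cell types moved in the same arrays, from 2 h on. Hba-a1, a haemoglobin gene of red blood cells, was higher at 2 h by 3.85 in striatum (adjusted p = 0.0275) and by 4.29 in cortex (adjusted p = 0.0177), and the summed linear signal of 2 of 3 erythroid markers was 2648 to 8749 in striatum at 2 h, against 188 to 2050 in sham, and 2538 to 13211 in cortex, against 180 to 482. The summed linear signal of 9 of 12 neuronal markers was 26037 to 30009 in striatum at 24 h, against 30411 to 31778 in sham striatum, and 36510 to 40838 and 33631 to 38941 in cortex at 8 and 24 h, against 41664 to 44211 in sham cortex. At 24 h, 3 of the 9 passed as lower in striatum (Syn1, Stmn2 and Nefm, by -0.48, -0.40 and -0.75) and 4 in cortex (the same and Map2, by -0.78, -0.54, -0.60 and -0.42), and 0 as higher. In cortex Eno2, Uchl1, Rbfox3 and Slc12a5 gave 0.21, 0.14, 0.11 and 0.02 at 24 h and did not pass. The sum of 5 of 6 neutrophil and monocyte markers was 1891 to 2997 at 8 h and 2718 to 7129 at 24 h in striatum, against 1056 to 1318 in sham, and 1705 to 4838 and 1187 to 9616 in cortex, against 788 to 1197 (Il1r2 was not measured). All 5 passed as higher in both regions at 24 h. Of 5 endothelial markers 3 passed as higher in each region at 24 h, with sums of 1930 to 2620 in striatum, against 1368 to 1538 in sham, and 1358 to 2979 in cortex, against 1169 to 1459. The sum of 6 microglial markers was 1073 to 1643 in striatum at 8 h, against 1748 to 2069 in sham. In cortex at 8 h it was 1443 to 1860, against 2039 to 2284, and at 24 h it overlapped sham in both regions. The sum of 3 choroid plexus markers ranged from 449 to 12691 within sham cortex and from 181 to 13935 within cortex at 24 h. The part of all these markers in the subunit values was not tested. In bulk tissue fewer cells of a type and less RNA per cell cannot be told apart.

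Promoter sequences were read for 4 subunits whose transcripts changed and which had a window in the RefSeq promoter table (GRCm38.p6): Ndufa10 and Ndufv1, which were higher, and Uqcrh and Atp5h, which were lower. Each runs 5′ to 3′ over the 250 bases before the start that the table uses, and capitals mark matches to the motifs searched on both strands: NRF-1 (GCGCA, any base, then GCGC), ETS (CCGGAAGT), YY1 (AAGATGGC), ERR (TCAAGGTCA) and CRE (TGACGTCA), motifs of factors known to act on genes of this kind.
Ndufa10 (chr1:92473759-92474008, minus strand): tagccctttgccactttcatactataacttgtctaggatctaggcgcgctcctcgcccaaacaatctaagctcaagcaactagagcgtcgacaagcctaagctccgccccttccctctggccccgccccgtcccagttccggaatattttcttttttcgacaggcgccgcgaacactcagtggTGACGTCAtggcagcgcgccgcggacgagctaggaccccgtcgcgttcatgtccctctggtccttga
Ndufv1 (chr19:4012756-4013005, minus strand): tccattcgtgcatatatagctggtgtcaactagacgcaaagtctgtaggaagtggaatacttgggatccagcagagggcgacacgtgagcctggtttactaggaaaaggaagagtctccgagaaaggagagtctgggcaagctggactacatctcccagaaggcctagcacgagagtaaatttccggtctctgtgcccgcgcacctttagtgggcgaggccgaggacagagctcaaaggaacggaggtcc
Uqcrh (chr4:116075071-116075320, minus strand): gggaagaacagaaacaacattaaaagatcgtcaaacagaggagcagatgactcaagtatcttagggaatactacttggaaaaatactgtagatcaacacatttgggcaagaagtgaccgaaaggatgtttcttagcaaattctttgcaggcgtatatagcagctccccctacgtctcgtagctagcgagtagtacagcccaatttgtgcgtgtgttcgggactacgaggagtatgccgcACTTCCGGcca
Atp5h (chr11:115419920-115420169, minus strand): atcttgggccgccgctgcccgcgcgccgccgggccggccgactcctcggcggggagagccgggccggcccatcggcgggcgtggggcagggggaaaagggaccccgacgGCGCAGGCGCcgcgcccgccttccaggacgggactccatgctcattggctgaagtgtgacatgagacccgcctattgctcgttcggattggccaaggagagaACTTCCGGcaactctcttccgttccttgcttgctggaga
In the Ndufa10 window the CRE letters lay at -67 to -60 from the start that the table uses, inside the annotated span of the gene, which begins upstream of that start. The Ndufv1 window held 0 matches. The Uqcrh window held the ETS letters on the reverse strand at -11 to -4, and that of Atp5h held the NRF-1 letters at -141 to -132 and the ETS letters, reversed, at -39 to -32. Across the 58 of 72 subunits with a window, NRF-1 letters were found in 9 (15.5%), against 8.29% of 7523 tested genes, ETS letters in 3 (5.17%, against 5.85%), CRE letters in 3 (5.17%, against 2.79%), ERR letters in 1 (1.72%, against 0.266%) and YY1 letters in 0 (against 1.95%). In 43 of the 58 windows none of the 5 motifs was found. A match describes the letters of the window and is no binding site.

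Complex I is the entry point for electrons from NADH. Its core subunits carry the flavin and the iron-sulfur clusters, and its many accessory subunits hold the arms together. In striatum 1 of 29 tested subunits was higher and 0 lower at 2 h, 2 were higher and 4 lower at 8 h, and 2 higher and 3 lower at 24 h. The cortex had 1 higher and 2 lower at 2 h, 1 and 1 at 8 h, and 3 and 4 at 24 h. Of all genes 6.3, 25.2 and 30.9% passed in striatum at 2, 8 and 24 h, and 4.65, 20.2 and 33.3% in cortex. Ndufa2, Ndufa3, Ndufa6, Ndufa10, Ndufb4, Ndufc1, Ndufc2, Ndufs3 and Ndufs8, and in complex IV Cox7a2l and Cox7b, are named here after their values were seen.

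Ndufv1 rose late, and most in the cortex. The cortex arrays gave 12.40, 12.24, 12.36 and 12.36 at 24 h, against 11.92, 11.78, 12.01 and 11.90 in sham, so the groups did not overlap. The mean was 12.34 ± 0.07 at 24 h and 11.90 ± 0.09 in sham (SD, n = 4 each), and the difference was 0.44 (SE 0.08, adjusted p = 8.99e-05). At 2 and 8 h the cortical differences were 0.04 and 0.15 and did not pass (adjusted p = 0.814 and 0.169), and the step of 0.29 between 24 and 8 h passed (adjusted p = 0.0174). In striatum Ndufv1 read 12.22, 12.20, 12.27 and 12.39 at 8 h, against 11.97 ± 0.07 in sham (SD, n = 4, at most 12.06), a rise of 0.30 (SE 0.08, adjusted p = 0.0054) that the authors' ratios put at 0.12 (adjusted p = 0.355). At 24 h the striatal rise was 0.24 (adjusted p = 0.0178), but on the authors' ratios the value was -0.02, and the call was lost without striatum 24 h replicate 3 (adjusted p = 0.0799). The cortical change at 24 h passed in all 17 alternatives tried, with a range of 0.26 to 0.48. Of subunit calls against sham, those for which this is not said were lost under at least 1 alternative.

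Ndufa10, an accessory subunit of the membrane arm, was higher than in sham in all 6 comparisons. In striatum it read 11.65, 11.63, 11.67 and 11.66 at 2 h, 11.74, 11.73, 11.61 and 11.77 at 8 h, and 11.71, 11.67, 11.74 and 11.76 at 24 h, against 11.38, 11.49, 11.36 and 11.42 in sham. Every reperfused striatum array lay above every sham array. The rises were 0.24, 0.30 and 0.31 (SE 0.06 each, adjusted p = 0.0212, 0.001 and 0.000466). In cortex they were 0.22, 0.20 and 0.20 (adjusted p = 0.0357, 0.0223 and 0.0128), and again no array overlapped sham. These calls depended on the processing and in part on single arrays. On the authors' ratios the 6 values were 0.01 to 0.12 with adjusted p of 0.358 to 0.968. Scaled to the 75th percentile the cortical values were 0.13 to 0.18 and did not pass. In cortex the calls at 2, 8 and 24 h were lost in 10, 6 and 2 of the 17 alternatives. In striatum they were lost in 6, 1 and 1. The cortical call at 2 h was lost without any single sham array (adjusted p = 0.0608 to 0.0878).

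**Figure D3:**
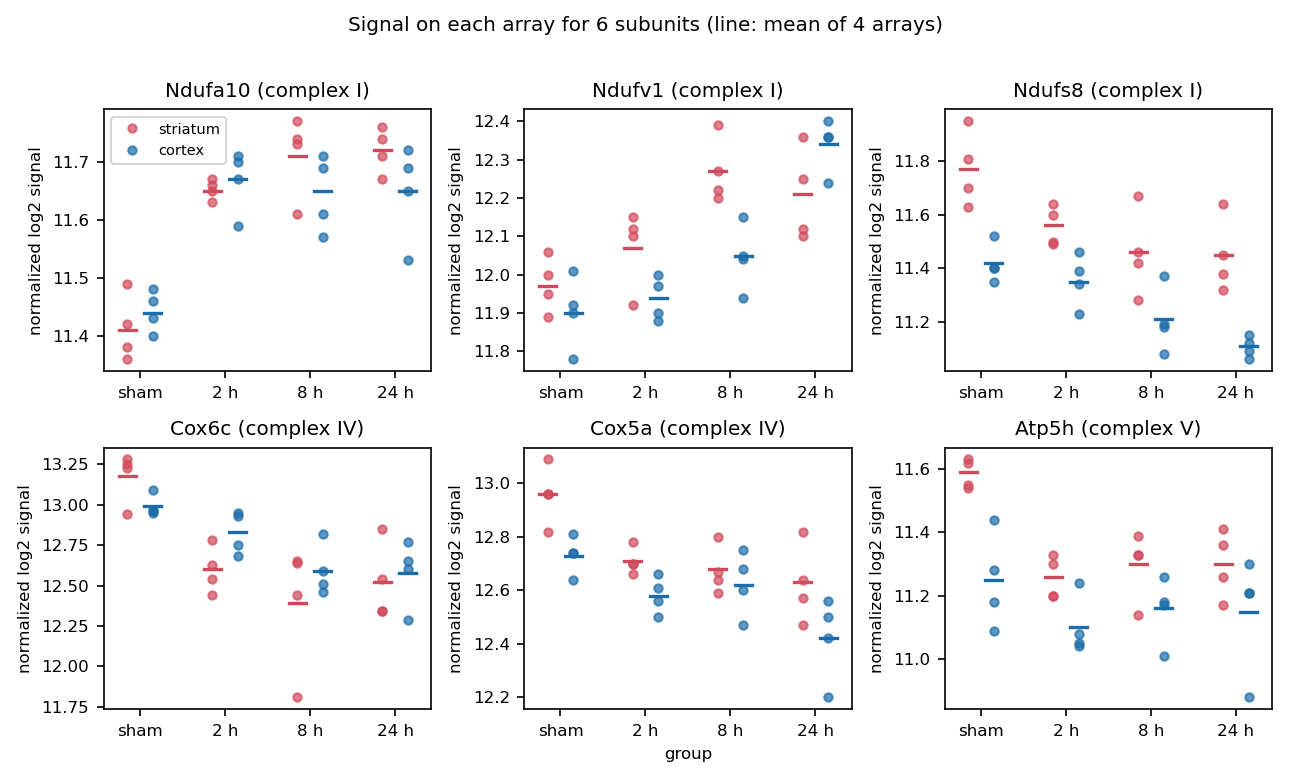
Normalized log2 signal of 6 subunits on every array, striatum in red and cortex in blue, for sham and 2, 8 and 24 h of reperfusion; each point is 1 array and each line the mean of 4. Ndufa10 is higher after reperfusion with no overlap in either region (a difference that the authors' ratios reduce to 0.01 to 0.12), Cox6c is lower on every reperfused striatum array than on any sham array, and striatum 8 h replicate 4 is the lowest Cox6c point at 11.81.

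Ndufs8, a core subunit with iron-sulfur clusters, was lower late in both regions. Its cortex arrays at 24 h lay at 11.06, 11.15, 11.09 and 11.12, against 11.52, 11.40, 11.35 and 11.40 in sham, a fall of 0.31 on the log2 scale (SE 0.09, adjusted p = 0.0076) with no overlap. In striatum it read 11.67, 11.28, 11.42 and 11.46 at 8 h and 11.38, 11.32, 11.45 and 11.64 at 24 h, against 11.81, 11.95, 11.70 and 11.63 in sham. Those groups overlapped, with differences of -0.32 (adjusted p = 0.00963) and -0.33 (adjusted p = 0.00578). The call at 8 h was lost without sham replicate 2 (-0.26, adjusted p = 0.0516), and those at 24 h passed in all 17 alternatives in both regions.

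Further subunits of complex I were lower at 8 or 24 h. Ndufa1, a small subunit needed for assembly, read 12.50, 12.48, 12.27 and 11.65 in striatum at 8 h, against 12.74, 12.87, 12.70 and 12.53 in sham, a change of -0.48 (SE 0.13, adjusted p = 0.00701). The array at 11.65 was replicate 4, and without it the value was -0.29 (adjusted p = 0.0448), and the call at 8 h passed in all 17 alternatives. At 24 h Ndufa1 was -0.36 (adjusted p = 0.0354). Ndufa2, an accessory subunit, was -0.32 in striatum at 8 h (adjusted p = 0.0368), a value of -0.16 without replicate 4 of that group (adjusted p = 0.231). Ndufs3, a core subunit, was -0.27 in striatum at 24 h (adjusted p = 0.0478), and -0.12 without replicate 2 of that group (adjusted p = 0.327). Of 9 NDUFB subunits, which form the far end of the membrane arm, 0, 1 and 0 passed in striatum and 0, 1 and 3 in cortex, all lower. Of all genes 2.81, 12.8 and 16.2% were lower in striatum and 2.45, 10.6 and 17.6% in cortex. Ndufb6 read 7.40, 7.75, 7.68 and 7.62 in cortex at 24 h, against 7.75, 8.41, 7.96 and 8.04 in sham. It was -0.43 there (SE 0.13, adjusted p = 0.0142) and -0.39 in striatum at 8 h (adjusted p = 0.0314), and the cortical call was lost without sham replicate 2 (-0.30, adjusted p = 0.0885). Ndufb2 read 7.65, 7.58, 8.05 and 8.11 in cortex at 8 h, against 8.11, 8.21, 8.41 and 8.45 in sham. It was -0.45 at 8 h and -0.38 at 24 h in cortex (adjusted p = 0.03 and 0.0442). Ndufb9 read 8.78, 9.14, 9.30 and 9.36 in cortex at 24 h, against 9.22, 9.35, 9.82 and 9.92 in sham, which overlapped. It was -0.43 there (SE 0.16, adjusted p = 0.0416), which did not pass once cortex 24 h replicate 1, the array apart from its group, was left out (-0.31, adjusted p = 0.152). With the slide as a block Ndufb9 passed as lower in striatum at 2, 8 and 24 h (-0.43, -0.30 and -0.26, adjusted p = 0.0117, 0.0259 and 0.0441) and in cortex at 8 h too (-0.30, adjusted p = 0.0323), and on the authors' ratios in striatum at all 3 times (-0.53, -0.47 and -0.48). Ndufb2 passed in striatum at 24 h with that block (-0.36, adjusted p = 0.0155). Ndufb4 gave -0.37 to -0.47 in all 6 comparisons and passed in 0, with an SE of 0.22 and overlapping groups.

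A pair of small membrane subunits, Ndufc1 and Ndufc2, was lower in cortex at 2 h. The 2 h arrays of Ndufc2 lay at 11.43, 11.33, 11.46 and 11.70, against 11.89, 11.77, 11.85 and 11.87 in sham, a difference of -0.36 (SE 0.09, adjusted p = 0.0171). Ndufc1 was -0.28 (adjusted p = 0.0442). At 24 h Ndufc2 gave 0.03 in cortex (adjusted p = 0.813). Ndufa6, an accessory subunit at the joint of the arms, read 11.98, 11.99, 11.96 and 12.05 in cortex at 24 h, against 11.80, 11.65, 11.55 and 11.69 in sham, a rise of 0.32 (SE 0.11, adjusted p = 0.0302) that the authors' ratios put at 0.15 (adjusted p = 0.226). In striatum at 24 h Ndufa6 gave -0.01 (adjusted p = 0.94).

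Other probes of the same genes did not always move alike. Where 11 genes had more than 1 probe, the probe with the highest mean was used. The second Ndufc1 probe was lower in 5 comparisons by -0.58 to -0.40, where the probe used passed in cortex at 2 h only. Of Ndufs4, an accessory subunit needed for full assembly, a pair of other probes was lower in striatum at all 3 times (-0.47 to -0.37), where the probe used did not pass. The second probe of Atp5l, subunit g of the ATP synthase, was lower in cortex at 8 and 24 h (-0.63 and -0.71), and also in striatum at 8 h (-0.66). Probe sequences were not used here, so which transcripts each probe reads, and cross-hybridization to near-identical copies, were not examined.

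Complex II, the only complex encoded wholly in the nucleus, had 0 of 3 measured subunits past the threshold at any time by limma (1 of them at an unadjusted p under 0.05 in striatum at 2 h, in cortex at 8 h and in cortex at 24 h). Sdhc, a membrane anchor named here after its values were seen, read 10.90, 10.93, 10.89 and 10.94 in striatum at 2 h, against 10.53, 10.57, 10.68 and 10.79 in sham. Those groups did not overlap, yet the difference of 0.27 (SE 0.11) had an adjusted p of 0.125. Over the 6 comparisons Sdhc gave 0.18 to 0.27. Sdhb, the iron-sulfur subunit, gave -0.15 to -0.11, and Sdhd, the other membrane anchor, -0.19 to 0.05.

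In complex III, 1 of 6 tested subunits passed in at least 1 comparison, against 55.4% of all genes. Uqcrh, the acidic hinge protein beside cytochrome c1, read 13.35, 13.41, 13.16 and 12.95 in striatum at 8 h and 13.34, 13.23, 13.22 and 13.30 at 24 h, against 13.56, 13.57, 13.48 and 13.40 in sham. The falls were 0.28 (SE 0.08, adjusted p = 0.012) and 0.23 (adjusted p = 0.0365) on the log2 scale, and the 24 h arrays did not overlap sham. The call at 8 h was lost without striatum 8 h replicate 4 (-0.20, adjusted p = 0.0735). In cortex Uqcrh gave -0.11, -0.03 and 0.09 and did not pass. Cyc1, cytochrome c1 itself, the core proteins Uqcrc1 and Uqcrc2, and Uqcrb passed in 0 comparisons, with Uqcrb between -0.35 and 0.08.

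Complex IV held the largest fall, that of Cox6c. Its catalytic subunits come from mitochondrial DNA and were not measured, so the values concern the nuclear-encoded subunits around them. Lower in striatum were 1, 3 and 3 of 14 at 2, 8 and 24 h, and 0, 1 and 3 in cortex, and 1 was higher, in cortex at 24 h. Of all genes 2.81, 12.8 and 16.2% were lower in striatum and 2.45, 10.6 and 17.6% in cortex. Higher in cortex at 24 h were 15.7% of all genes.

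Cox6c read 12.44, 12.54, 12.63 and 12.78 in striatum at 2 h, 12.65, 12.64, 12.44 and 11.81 at 8 h, and 12.34, 12.34, 12.54 and 12.85 at 24 h, against 13.25, 13.28, 13.23 and 12.94 in sham. All 12 reperfused striatum arrays were below all 4 sham arrays. The falls were 0.58, 0.79 and 0.66 on the log2 scale (SE 0.14 each, adjusted p = 0.0165, 0.000313 and 0.000996). Those at 8 and 24 h passed in all 17 alternatives (-0.97 to -0.60 at 8 h and -0.91 to -0.60 at 24 h), whereas that at 2 h was lost without sham replicate 1, 2 or 3 or 2 h replicate 1 (adjusted p = 0.0532 to 0.0667). In cortex Cox6c was -0.16 at 2 h (adjusted p = 0.546), -0.40 at 8 h (adjusted p = 0.0492) and -0.42 at 24 h (adjusted p = 0.027). The cortical arrays read 12.59, 12.82, 12.51 and 12.46 at 8 h and 12.60, 12.29, 12.65 and 12.77 at 24 h, against 12.97, 13.09, 12.96 and 12.95 in sham. The cortical call at 24 h was lost without sham replicate 2 (-0.38, adjusted p = 0.0725) or 24 h replicate 2 (-0.32, adjusted p = 0.122), and that at 8 h in 10 of the 17 alternatives, among them the slide as a block (-0.40, adjusted p = 0.0727).

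Cox5a, which faces the matrix, and Cox7a2, the widely expressed form of subunit VIIa, were lower at 8 and 24 h in striatum and at 24 h in cortex. Cox5a read 12.57, 12.47, 12.82 and 12.64 in striatum at 24 h, against 12.96, 13.09, 12.96 and 12.82 in sham, and 12.50, 12.56, 12.42 and 12.20 in cortex at 24 h, against 12.81, 12.74, 12.74 and 12.64 in sham. The changes were -0.33 (SE 0.09, adjusted p = 0.00407) and -0.31 (SE 0.09, adjusted p = 0.00664), and both passed in all 17 alternatives. The striatal groups touched at 12.82 and the cortical groups did not overlap. Cox7a2 read 8.79, 8.78, 8.69 and 8.23 in striatum at 8 h, against 9.17, 9.02, 9.24 and 8.97 in sham. It was -0.48 in striatum at 8 h (SE 0.13, adjusted p = 0.00844), -0.41 at 24 h (adjusted p = 0.0175) and -0.35 in cortex at 24 h (adjusted p = 0.0433). The call of Cox7a2 at 8 h was lost without striatum 8 h replicate 4 (-0.35, adjusted p = 0.0534), and with the slide as a block it also passed in striatum at 2 h (-0.38, adjusted p = 0.0467) and in cortex at 8 h (-0.33, adjusted p = 0.0442). Cox7a2l was higher in cortex at 24 h by 0.23 (adjusted p = 0.0406), and on the authors' ratios by 0.08 (adjusted p = 0.534). Cox7b gave -0.47 in cortex at 8 h without passing (adjusted p = 0.0847).

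Isoforms of complex IV known from other tissues gave no change past the threshold after reperfusion. Cox4i1, the general form of subunit IV, ranged from -0.05 to 0.18 over the 6 comparisons, Cox6a1 from -0.16 to 0.08, its muscle form Cox6a2 from -0.14 to 0.09, Cox7a1, the heart and muscle form of VIIa, from -0.19 to 0.29, and Cox8a from -0.06 to 0.11. On the authors' ratios 4 of them passed as lower in striatum at 24 h, Cox4i1 at -0.22 (adjusted p = 0.0495), Cox6a1 at -0.33 (adjusted p = 0.00547), Cox6a2 at -0.33 (adjusted p = 0.0378) and Cox7a1 at -0.34 (adjusted p = 0.0445), and Cox6a1 also at 2 and 8 h (-0.29 and -0.24). Cox8b, the muscle form of VIII, gave 0.65 in striatum at 24 h with an SE of 0.33 (adjusted p = 0.137). Its 24 h arrays read 7.88, 7.61, 5.91 and 7.39, against 6.52, 6.78, 6.19 and 6.71 in sham, so 1 array lay below all of sham. Without that array, replicate 3, the value was 1.08 and passed (adjusted p = 0.00692). Cox4i2, the hypoxia-responsive form of IV, was detected on 0 arrays.

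**Figure D4:**
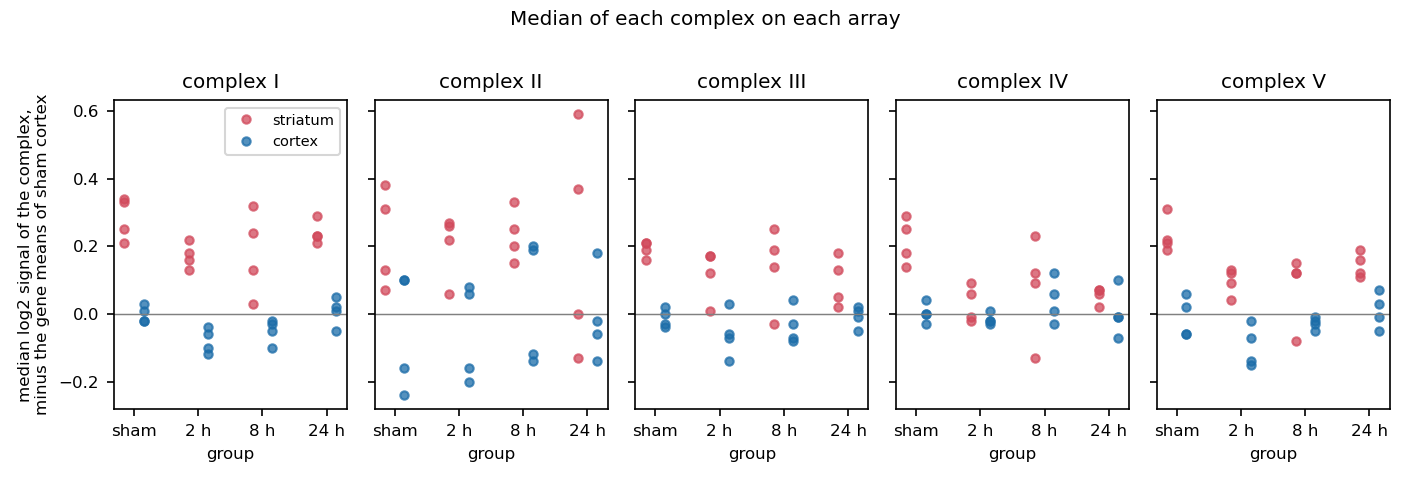
Median log2 signal of the tested subunits of each complex on each array, after subtracting each gene's mean in sham cortex, for striatum (red) and cortex (blue) in sham and at 2, 8 and 24 h; each point is 1 array. Over all 66 subunits the median was 0.10 to 0.16 in striatum at 2 h, against 0.19 to 0.31 in sham striatum, and striatum 8 h replicate 4 was lowest of its group at -0.04.

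In complex V, a catalytic head is driven by a membrane ring and held by a peripheral stalk. Lower in striatum were 1, 2 and 2 of 14 at 2, 8 and 24 h, with 1 higher at 8 h, while the cortex had 2 lower at 2 h, 1 higher at 8 h and 2 higher at 24 h. Of all genes 2.81, 12.8 and 16.2% were lower in striatum, and 12.4% higher at 8 h. In cortex 2.45% were lower at 2 h, and 9.58 and 15.7% higher at 8 and 24 h.

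Atp5h, subunit d of the peripheral stalk, read 11.20, 11.30, 11.20 and 11.33 in striatum at 2 h, 11.33, 11.33, 11.39 and 11.14 at 8 h, and 11.17, 11.36, 11.26 and 11.41 at 24 h, against 11.54, 11.55, 11.62 and 11.63 in sham. No reperfused array reached the sham arrays. The falls were 0.33, 0.29 and 0.29 on the log2 scale (SE 0.09 each, adjusted p = 0.0278, 0.0195 and 0.0167). Cortical values were -0.14, -0.09 and -0.10 and did not pass. The calls were lost at 8 h without striatum 8 h replicate 4 (-0.23, adjusted p = 0.0784) and at 24 h without striatum 24 h replicate 1 (-0.24, adjusted p = 0.0567).

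Atp5j2, subunit f of the membrane part, was lower in striatum at 8 and 24 h. Its arrays were at 13.56, 13.31, 13.24 and 12.97 at 8 h and at 13.31, 13.28, 13.28 and 13.56 at 24 h, against 13.60, 13.73, 13.68 and 13.61 in sham. The changes were -0.39 (SE 0.09, adjusted p = 0.00381) and -0.30 (adjusted p = 0.0162), with no overlap, and that at 8 h passed in all 17 alternatives. Atp5pb, subunit b of the peripheral stalk (Atp5f1 on the array, and named here after its values were seen), moved the other way, by 0.27 in striatum at 8 h (adjusted p = 0.0486) and 0.28 in cortex at 24 h (adjusted p = 0.0348). On the authors' ratios these rises were 0.08 and 0.11 and did not pass.

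Atp5b, the catalytic beta subunit, read 14.19, 14.05, 14.02 and 14.05 in cortex at 8 h, against 13.73, 13.92, 13.89 and 14.00 in sham, a rise of 0.19 (SE 0.07, adjusted p = 0.0354). The call was lost without sham replicate 1 (0.14, adjusted p = 0.154). Atp5b passed in 0 of the other comparisons with sham, with values of 0.11 to 0.19 over all 6 and 0.09 in this one on the authors' ratios. Scaled to the 75th percentile, Atp5b passed instead in striatum at 8 and 24 h (0.36 each, adjusted p = 0.0139 and 0.0109) and not in cortex at 8 h (0.20, adjusted p = 0.169). Atp5g1, Atp5g2 and Atp5g3 encode the same mature ring subunit c. Atp5g3 was -0.31 in cortex at 2 h (adjusted p = 0.0327), with arrays of 13.88, 13.50, 13.52 and 13.70, against 14.04, 13.88, 13.99 and 13.92 in sham. Atp5g1 read 11.96, 11.99, 12.04 and 11.99 in cortex at 24 h, against 11.69, 11.89, 11.75 and 11.72 in sham. It was 0.23 in cortex at 24 h (adjusted p = 0.0218) and 0.20 in striatum at 24 h (adjusted p = 0.0501), and Atp5g2 passed in 0 comparisons; on the authors' ratios the cortical rise of Atp5g1 was 0.07 (adjusted p = 0.512). Atp5o, which joins the stalk to the head and is named here after its values were seen, was -0.28 in cortex at 2 h (SE 0.08, adjusted p = 0.0344), with 4 arrays at 8.44 to 8.50, below the 8.64 to 8.82 of sham.

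Between successive times few subunits moved. From 8 to 24 h, Ndufv1 was the only subunit that passed in cortex (1 of 66, against 8.11% of all genes). In striatum it was Ndufa3, an accessory subunit of complex I, at 0.39 (SE 0.12, adjusted p = 0.035, against 7.87% of all genes). Ndufa3 read 12.12, 12.05, 11.99 and 12.09 at 24 h, against 11.99, 11.93, 11.62 and 11.15 at 8 h, and without striatum 8 h replicate 4 (11.15) 0 subunits passed. Between 8 and 2 h, 0 subunits passed by limma in either region, against 1.53% of all genes in striatum and 2.93% in cortex. At an unadjusted p under 0.05 there were 3 subunits in each region, with no share of all genes given at that threshold.

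Whether the regions responded differently was tested directly, as the striatal minus the cortical change. By limma 0 of 66 subunits passed at 2, 8 or 24 h, against 0.0%, 0.0% and 0.0633% of all genes at the same adjusted threshold. At an unadjusted p under 0.05 there were 1, 3 and 6 subunits, with no share of all genes given at that threshold. For Cox6c the differences were -0.42, -0.39 and -0.24 (SE 0.20 each, adjusted p = 0.779, 0.645 and 0.82). The falls of Cox6c, Atp5h, Atp5j2 and Uqcrh in striatum are therefore not shown to be particular to that region.

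In sham mice many subunits were higher in striatum than in cortex. Of the 66, 28 were higher and 1 lower (43.9%, against 34.0% of all genes, 17.4% higher and 16.6% lower), the median difference was 0.25 against 0.00 over all genes, and 57 of 66 values were positive. The higher ones were 15 of 29 in complex I, 1 of 3 in complex II, 2 of 6 in complex III, 4 of 14 in complex IV and 6 of 14 in complex V. Cox7a1 differed most, at 7.69 ± 0.17 in striatum and 6.98 ± 0.19 in cortex (SD, n = 4 each), a difference of 0.71 (SE 0.15, adjusted p = 0.00043). It read 7.85, 7.80, 7.66 and 7.46 in striatum, against 7.06, 6.78, 7.20 and 6.87 in cortex, with no overlap. Ndufb5 was higher by 0.64 (adjusted p = 0.0013), Ndufa6 by 0.54 (adjusted p = 0.000475), Uqcrh by 0.53 (adjusted p = 9e-06), Uqcrb by 0.53 (adjusted p = 0.0114), and Cox7a2l by 0.51 (adjusted p = 2.5e-05). Cox8a, the general form of subunit VIII, was lower in striatum by 0.23 (adjusted p = 0.0303), a call lost without sham cortex replicate 4 (-0.13, adjusted p = 0.199).

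**Figure D5:**
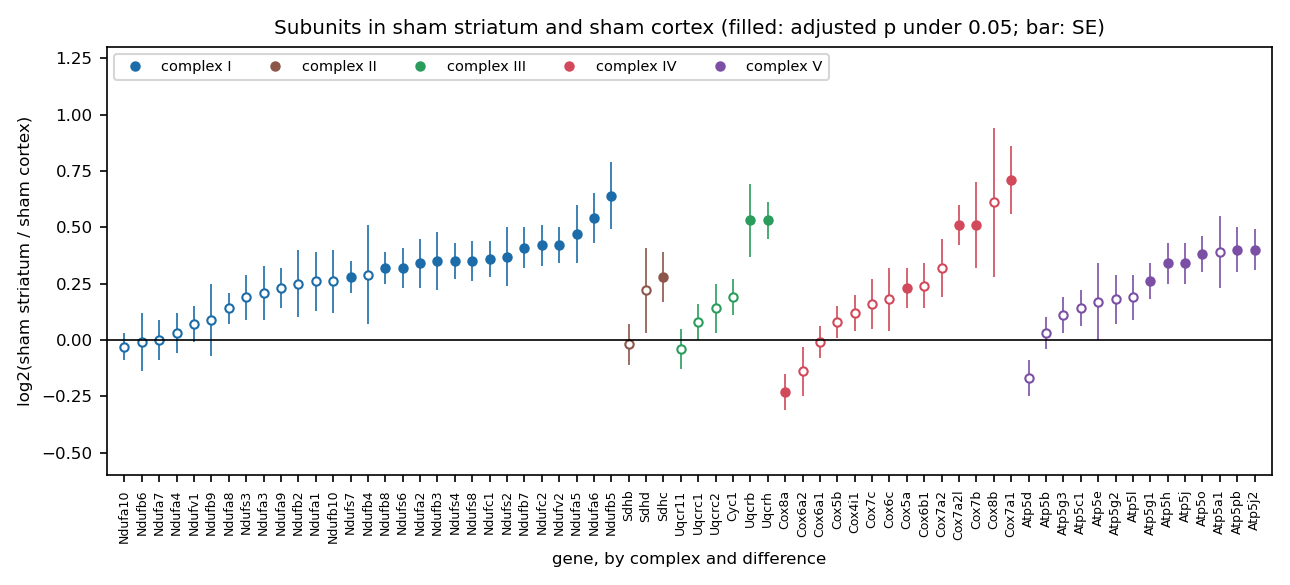
Log2 difference of each subunit between sham striatum and sham cortex, grouped by complex and ordered within it; bars are standard errors and filled points passed at adjusted p under 0.05. Most points lie above 0 (57 of 66), up to Cox7a1 at 0.71, and Cox8a at -0.23 is the only filled point below 0.

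No slide held arrays of both regions, so slide and region cannot be told apart in this comparison. Markers of other cells differed in the same arrays. The summed signal of 9 neuronal markers was 30411 to 31778 in sham striatum, against 41664 to 44211 in sham cortex, and that of all 6 oligodendrocyte markers was 38499 to 41408, against 29748 to 30793. Pmch, the hypothalamic gene, read 11.75 to 12.33 in sham striatum, against 4.79 to 6.03 in sham cortex. The sum of 3 choroid plexus markers was 10183 to 14608, against 449 to 12691. The part of these markers in the subunit difference was not tested.

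Genes that serve the same pathway were counted from lists of known function. Beside the counts of all these lists, 3.49, 12.4 and 14.7% of all genes were higher in striatum at 2, 8 and 24 h. Lower there were 2.81, 12.8 and 16.2%. In cortex 2.21, 9.58 and 15.7% of all genes were higher and 2.45, 10.6 and 17.6% lower. Of 31 assembly factors 23 were tested. In striatum 0, 1 and 1 were higher and 1, 4 and 3 lower at 2, 8 and 24 h, and in cortex 0, 1 and 4 higher and 0, 2 and 1 lower. Ndufaf5, a complex I assembly factor, was lower in 5 of the 6 comparisons, down to -0.55 in striatum at 24 h (adjusted p = 2.6e-05). Surf1, which assists complex IV, was higher in cortex at 8 and 24 h (0.29 and 0.28), and Foxred1, a complex I factor, at 24 h in cortex (0.44) and in striatum (0.27).

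Of 7 tested carriers and pore proteins of 10 listed, 1, 1 and 3 were lower in striatum at 2, 8 and 24 h, and in cortex 1 was lower at 2 h and 1 higher at 24 h. Slc25a3, the mitochondrial phosphate carrier, was -0.36, -0.32 and -0.41 in striatum (adjusted p = 0.0295, 0.0194 and 0.00288). Of 19 tested genes of the citrate cycle and pyruvate entry (22 listed), 0, 1 and 1 were higher and 1, 2 and 3 lower in striatum, and 0, 1 and 2 higher and 0, 1 and 4 lower in cortex. Fh1, fumarase, was lower in 5 comparisons, by -0.63 (adjusted p = 0.000696) in striatum at 8 h. Idh2, the NADP-dependent isocitrate dehydrogenase of mitochondria, was higher at 24 h, by 0.41 in striatum and 0.56 in cortex.

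Among regulators of mitochondrial biogenesis, only Ppargc1b changed by more than 1 on the log2 scale. Of 14 tested (19 listed), 0, 2 and 1 were higher and 2, 3 and 5 lower in striatum at 2, 8 and 24 h, and 0, 1 and 2 higher and 0, 2 and 4 lower in cortex. Ppargc1b, a coactivator of mitochondrial genes, was -1.12 in striatum (adjusted p = 9.65e-06) and -1.13 in cortex (adjusted p = 9.15e-06) at 24 h. Ppargc1a did not pass in any comparison with sham, with -0.23 in striatum and -0.26 in cortex at 24 h. Tfam, which maintains mitochondrial DNA, was -0.55 in striatum (adjusted p = 0.000338) and -0.36 in cortex (adjusted p = 0.0101) at 24 h. Nrf1, a transcription factor of respiratory genes, was higher at 8 h, by 0.71 in striatum and 0.65 in cortex. At 24 h it was higher by 0.45 in striatum (adjusted p = 0.022) and 0.40 in cortex (adjusted p = 0.0399). Mitochondrial ribosomal proteins went both ways: of 69 tested, 3, 8 and 13 were higher and 3, 12 and 9 lower in striatum, and 0, 10 and 14 higher and 0, 8 and 11 lower in cortex. All genes did so too, with 14.7% higher and 16.2% lower in striatum at 24 h, and 15.7% and 17.6% in cortex. Of 9 tested subunits that belong to the family only by their current symbol, Ndufv3, a further flavoprotein subunit of complex I, was higher at 24 h in striatum (0.38) and in cortex (0.29), and Atp5md, a small membrane subunit of the ATP synthase, was lower in striatum at 2 h (-0.86) and 8 h (-0.75).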

How the data were processed

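Total RNA, labelled as biotin cRNA, was hybridised to Illumina MouseRef-8 V2 arrays. Per the file headers, the authors exported probe intensity values (AVG_Signal) from BeadStudio 3.3.7 with no normalization, and detection is deposited as a fraction, the complement of a p-value. A table of the authors, deposited as a linear ratio (fold) with the sham mean of each region as its base, was an alternative, and its normalization is not given in the sources used here. A further table of the authors, of raw signals, carried the 32 arrays under mirrored replicate numbers, and its probes were matched by identical values. The ratio columns were taken by sample label, and their replicate order was not tested. Fits on the ratios used only the groups, so replicate numbers did not enter them. The log2 scale is not the authors': the deposited intensities were background-corrected, quantile-normalized and converted to log2 over 32 arrays with neqc (limma 3.58.1, R 4.3.3, offset 16).

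Kept were 12758 probes detected (p under 0.01) in 4 or more arrays, with 1 probe per gene by highest mean (9475 genes). One limma fit over 8 groups gave two-sided tests, adjusted by Benjamini-Hochberg over all genes, with a threshold of 0.05. All adjusted p-values in the text are from this fit unless an alternative is named. The array number limits the precision.

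Each slide, taken from the shared stem of the array codes, held sham, 2, 8 and 24 h arrays of 1 region, and each group kept 1 position on its slides, which therefore cannot be told apart from the group. The members and lists were chosen with earlier results of these data known. Named were the members with the largest change past the threshold (up to 5 in complex I and 3 in each other complex) and the tissue isoforms. Also named was 1 subunit per complex (Ndufs1, Sdha, Uqcrfs1, Cox5a and Atp5b). Of those only Cox5a and Atp5b were tested, and the catalytic subunits of complex IV were not measured. Ndufa4l2 and Sdha had no member probe. Promoter windows were searched over the 250 bases before the start, and where a gene had several the first listed was used.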

Additional observations from a re-analysis of the deposited data

Results flagged for a closer look

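Single arrays stood apart from the other 3 of their group in 9 of 168 groups of 4 arrays (21 subunits in 8 groups), by a gap ratio above Dixon's critical value, and chance flags about 1 in 20 groups. In striatum at 24 h, Atp5j2 was high in replicate 4 at 13.56 (others 13.28 to 13.31), Cox4i1 high in replicate 2 at 13.42 (13.31 to 13.33), Atp5g1 low in replicate 2 at 12.16 (all others at 12.24 or above), and Ndufb2 low in replicate 1 at 7.93 (8.25 to 8.27). In sham striatum, Cox6c was low in replicate 4 at 12.94 (13.23 to 13.28), Ndufb9 low in replicate 4 at 9.49 (9.71 to 9.76), and Atp5b low in replicate 1 at 13.84 (13.94 to 13.95). In cortex, Atp5b was low at 2 h in replicate 2 at 14.0, beside 14.04 in others, and Atp5j2 high in sham replicate 1 at 13.4 (13.21 to 13.22). The reason was not tested.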

How the results depend on the processing

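Single-subunit results that had passed kept their direction and their side of the threshold in 359 values with 1 array left out and lost the call in 153. Under the other alternatives 467 kept both, 63 lost the call and 1 reversed, Ndufv1 in striatum at 24 h (-0.02 on the authors' ratios). Of 153 values of these subunits that had not passed, 59 passed under at least 1 alternative, 9 with 1 array left out and 57 otherwise. Same-numbered arrays of a slide deviated together only weakly (mean correlation -0.006 to 0.195, single pairs -0.273 to 0.355). With the replicate block, 6 subunits were lower in striatum at 2 h and 4 in cortex at 8 h. Of all genes 777 and 2138 passed there, against 597 and 1917 without the block. With it 2 subunits moved between 24 and 8 h in cortex, and 1 between 8 and 2 h in striatum. With 75th-percentile scaling 0, 0 and 1 were higher in cortex at 2, 8 and 24 h and 0 moved between 24 and 8 h in striatum. On the authors' ratios 11, 27 and 38 were lower in striatum and 29, 19 and 16 in cortex (of all genes 10.6, 28.8 and 36.6%, and 16.6, 20.2 and 24.5%), 0, 0 and 0 higher in striatum and 0, 0 and 1 in cortex, and 0 moved between 24 and 8 h in either region. Without the detection filter 4 were higher in striatum at 24 h. Fitted in each region alone, 0 were higher in striatum at 2 h and 5 lower at 24 h, 0 moved between 24 and 8 h in striatum, and in cortex 0 were lower or higher at 2 h and 0 higher at 8 h. With array weights 18 were lower and 2 higher in striatum at 2 h, and in cortex 9 were lower at 2 h and 1 higher at 8 h. At 2 h 2478 of all genes passed with weights in striatum and 1660 in cortex, against 597 and 441 without. In striatum 1 subunit moved between 8 and 2 h with weights, and 0 between 24 and 8 h. Over all 78 detected probes 5 were lower in striatum at 2 h and 2 moved between 24 and 8 h. Without the 2 cortex arrays that stood apart, an alternative chosen after seeing the data, 1 was lower in cortex at 8 h and 4 at 24 h. The cause of these shifts was not tested.

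With 1 array left out at a time, lower counts in striatum were 0 to 4, 4 to 13 and 4 to 9 at 2, 8 and 24 h and higher counts 0 to 1, 2 to 3 and 1 to 3. In cortex lower counts were 0 to 3, 0 to 2 and 4 to 7 and higher counts 0 to 1, 0 to 2 and 3 to 7. The lower count in striatum at 2 h was 0 without sham replicate 1, 2 or 3 or 2 h replicate 1. In cortex it was 0 at 2 h without sham replicate 1 or 2 h replicate 2 or 3, 0 at 8 h without sham replicate 3 or 4 or 8 h replicate 1, and 4 at 24 h without sham replicate 3 or 4 or 24 h replicate 2. The higher count in cortex at 24 h was 3 without sham replicate 2 or 24 h replicate 2 or 3. Sham striatum against sham cortex gave 24 to 28. Between 24 and 8 h 0 to 2 passed in each region, between 8 and 2 h 0 in striatum and 0 to 1 in cortex, and the regions' responses differed in 0 at each time.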
